A study of Rattus norvegicus with 45 samples.

Results

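The genes described here encode the liver enzymes that oxidize or reduce alcohols, aldehydes and other carbonyl compounds, together with the flavin monooxygenases and aldehyde oxidases. They were taken from the array's gene symbols as every gene of the Aldh, Adh, Akr, Cbr, Fmo and Aox families, leaving out Akr1b8 and Akr7a3. The choice was made with earlier results of these data known, and the counts of higher members leave out these 2 genes, which were both higher with APAP at 6, 9 and 24 h. This gave 41 of the 13877 genes measured: 16 aldehyde dehydrogenases (Aldh), 12 aldo-keto reductases (Akr), 5 alcohol dehydrogenases (Adh), 4 flavin monooxygenases (Fmo), 2 carbonyl reductases (Cbr) and 2 aldehyde oxidases (Aox).

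Liver RNA came from 45 male Sprague-Dawley rats, 5 weeks old and fasted for 16 h, in 9 groups of 5, with 1 array per animal. The baseline group was killed before dosing (0 h). The others received vehicle (1% hydroxyethylcellulose, by gavage) or acetaminophen (APAP, a painkiller whose overdose damages hepatocytes) dosed at 1000 mg/kg in the same vehicle, and were killed at 3, 6, 9 or 24 h. Food was given back after the fast, so vehicle animals differ from baseline in both feeding and time of day, and neither can be told apart from the vehicle itself.

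Alcohol dehydrogenases turn alcohols, including ethanol and retinol, into aldehydes with NAD+, and aldehyde dehydrogenases carry these on to acids. Aldo-keto and carbonyl reductases work the other way with NADPH, reducing aldehydes, ketones and steroid carbonyls to alcohols. Flavin monooxygenases add oxygen to nitrogen and sulfur atoms of drugs and diet-derived amines, and aldehyde oxidases oxidize aldehydes and aromatic nitrogen rings. The liver is rich in many of these enzymes, which clear lipid peroxidation aldehydes and also serve amino acid, bile acid, folate, steroid and retinoid metabolism.

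Levels are log2 array intensities, so a difference of 1 is a 2-fold change. Over all 45 arrays the members were mostly bright: 31 of 41 had a mean above the median gene (7.36), and 5 lay below the 25th percentile of gene means (5.98). Aldh2, the mitochondrial acetaldehyde dehydrogenase, had the highest mean level (12.76), followed by Akr1a1 (12.47), Aldh3a2 (12.37), Adh1 (12.25) and Akr1c14 (12.24), while Aox4 was lowest at 4.90. Intensities of different genes depend on their probes, so this order describes the arrays and not the amounts of RNA.

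Arrays of a group were alike, with Pearson correlations across genes of 0.983 to 0.996 between animals. The summed level of 8 hepatocyte markers, Alb among them, stayed between 17.23 and 17.34 on every array, and none passed in any APAP comparison with vehicle. Of 35 measured markers of other cell types, 1 was higher with APAP at 3 h, 2 were higher at 6 h, 5 were higher with 4 lower at 9 h, and 3 were lower at 24 h. The summed erythroid markers at 9 h lay at 13.58 to 14.96 in APAP animals against 13.15 to 13.83 with vehicle, endothelial ones at 11.13 to 11.68 against 11.70 to 11.84, and cholangiocyte ones at 9.75 to 10.11 against 9.47 to 9.62. The part of other cells in the results at 9 h was not tested, and in whole tissue fewer cells of a type and less RNA per cell cannot be told apart.

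With APAP, the enzymes were lower far more often than higher until 9 h. A gene passed at a limma adjusted p (Benjamini-Hochberg over all genes) below 0.05 together with a 1.5-fold or larger change. At 3 h 5 of 41 members were lower and 1 was higher than in vehicle animals, where 2.98% of all genes were lower and 3.34% higher. At 6 h 10 were lower and 2 higher, against 7.04% and 7.06% of all genes, and at 9 h 13 were lower and 2 higher, against 8.47% and 8.65%. At 24 h 5 were lower and 2 higher, against 1.84% and 1.56%. Centred on the ribosomal protein genes described further on, that split was 20 lower and 0 higher. That centring shifted all genes down (median -0.54), and 5150 of the 13877 genes passed, 0.777% of them higher. Without it the lower calls made up 12.2, 24.4, 31.7 and 12.2% of the members at the 4 times. The median log2 difference of the members was -0.11, -0.27, -0.29 and -0.05, beside -0.02, -0.04, -0.03 and 0.01 over all genes. The APAP and vehicle animals did not overlap in 7, 16, 17 and 10 members, where 20.2, 33.1, 35 and 10.1% of all genes did not. In all, 19 members passed at 1 or more times, 17 of them lower at some time, 4 higher at some time, and 2 (Adh1 and Akr1a1) lower at one time and higher at another.

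**Figure D1:**
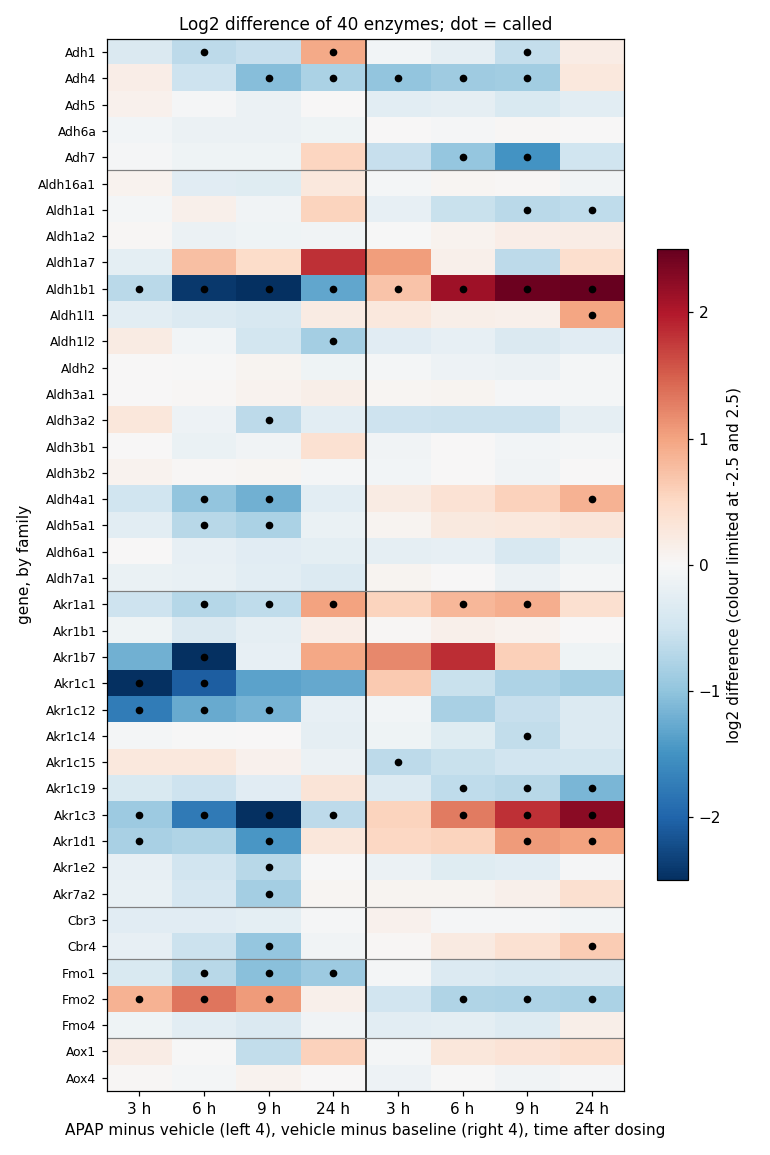
Each row is a gene, 40 of the 41 members, and each column a comparison at 3, 6, 9 or 24 h, with the log2 difference of group means (5 animals each) as colour, APAP minus vehicle on the left and vehicle minus baseline on the right, and dots mark genes that passed. Blue fills much of the left block at 6 and 9 h, where 10 and 13 genes were lower, while Fmo2 is red there.

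**Figure D2:**
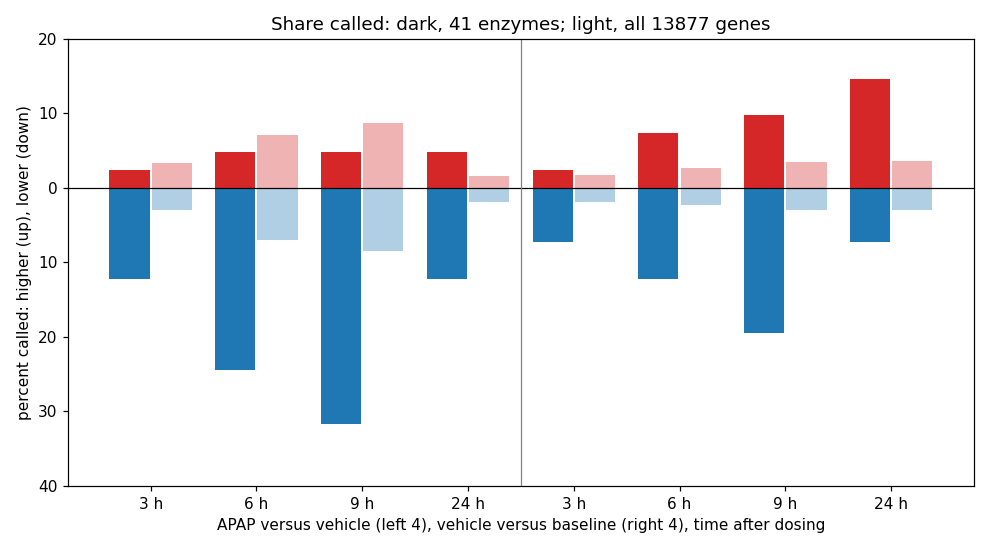
Bars give the percent of genes that passed as higher (upward, red) or lower (downward, blue), APAP against vehicle on the left and vehicle against baseline on the right, dark for the 41 enzymes and light for all 13877 genes. At 9 h with APAP 31.7% of the enzymes were lower, beside 8.47% of all genes.

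Among the aldehyde dehydrogenases, Aldh1b1 stood farthest from its controls. It encodes a mitochondrial enzyme that oxidizes acetaldehyde and other short aldehydes. Baseline animals read 6.97, 7.16, 6.48, 7.01 and 6.40. At 6 h the vehicle animals read 8.07, 9.45, 8.88, 9.34 and 8.86 and the APAP animals 6.26, 6.42, 6.49, 6.68 and 6.70. The 2 groups did not overlap, and the APAP animals lay within or just below the baseline range. The values at 9 h were 10.15, 8.46, 9.06, 9.21 and 9.39 with vehicle against 6.66, 6.73, 6.89, 6.75 and 6.57 with APAP, again without overlap. Aldh1b1 was 1.59-fold lower with APAP at 3 h (adjusted p = 0.00549), 5.31-fold at 6 h (log2 difference -2.41, SE 0.21, adjusted p = 2.17e-06), 5.79-fold at 9 h (-2.53, SE 0.23, adjusted p = 3.19e-06) and 2.44-fold at 24 h (adjusted p = 0.0174). The vehicle animals climbed at every time, by 0.72, 2.11, 2.45 and 3.52 log2 units over baseline (adjusted p = 0.0108, 4.58e-05, 2.26e-05 and 4.54e-06). In APAP animals the difference from baseline was 0.05, -0.30 and -0.08 at 3, 6 and 9 h and did not pass, and at 24 h it was 2.23 and passed (adjusted p = 5.85e-06). Vehicle animals at 24 h read 10.44, 11.05, 9.15, 10.26 and 10.71 and APAP animals 9.22, 9.21, 9.09, 9.28 and 8.35, with vehicle replicate 3 inside the APAP range. The call at 3 h was lost without vehicle replicate 1, where the difference was -0.54.

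The aldo-keto reductase Akr1c3, named Akr1c18 in older work and known as a steroid reductase that inactivates progesterone, followed the same course. At 3 h vehicle animals read 8.42, 7.64, 8.30, 7.82 and 8.01 and APAP animals 7.47, 7.01, 6.77, 7.29 and 7.11. At 9 h they read 9.72, 9.38, 9.16, 9.02 and 9.26 against 6.75, 6.55, 6.92, 6.82 and 6.53. Every vehicle animal lay above every APAP animal at all 4 times, 24 h included (9.50 to 10.06 against 8.64 to 9.34). The gene was 1.88-fold lower with APAP at 3 h, 3.41-fold at 6 h, 6.04-fold at 9 h (log2 difference -2.59, SE 0.12, adjusted p = 1.93e-08) and 1.57-fold at 24 h (adjusted p = 0.013). At 24 h the call was lost without APAP replicate 3 or vehicle replicate 1. In vehicle animals it rose over baseline (7.13 to 7.97) by 1.29 at 6 h, 1.83 at 9 h and 2.25 at 24 h, while the APAP animals fell 0.76 below baseline at 9 h (log2 difference -0.76, adjusted p = 0.00114) and were 1.59 above it at 24 h. Aldh1b1 and Akr1c3 were the only members called at all 4 times. Akr1c14, the neighbouring gene of Akr1c3 in the GRCr8 gene table, with no protein-coding gene between them, encodes a 3-alpha-hydroxysteroid dehydrogenase and differed from vehicle by -0.22 to 0.00 without passing at any time.

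**Figure D3:**
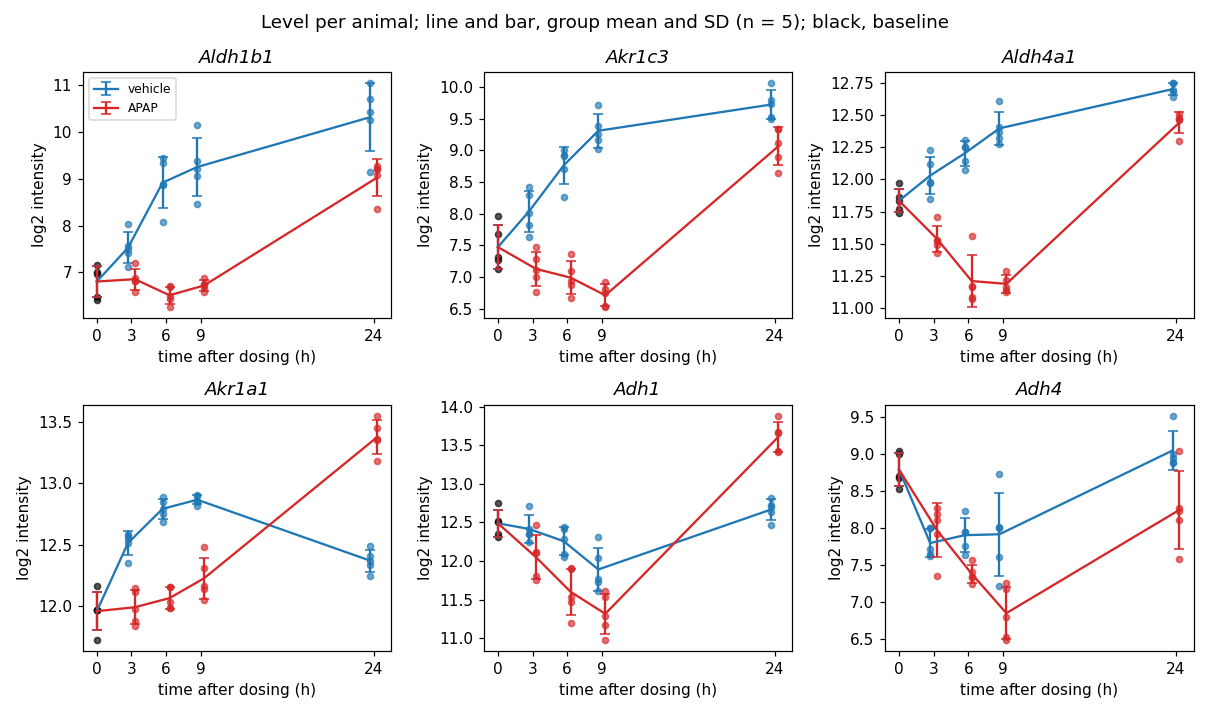
Points are single animals (log2 intensity) at baseline (black), with vehicle (blue) and with APAP (red) against hours after dosing, and lines with bars are group means with SD (n = 5). Aldh1b1 climbs with vehicle to a mean of 10.32 at 24 h and stays near its baseline of 6.81 with APAP until 9 h, and Akr1a1 and Adh1 lie above every other group in APAP animals at 24 h.

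Because Aldh1b1 and Akr1c3 moved together, the 250 bases before their start sites are shown, taken from RefSeq's GRCr8 table, 5′ to 3′ along the gene. Capitals mark every match, on either strand, to CCAAT (a box bound by NF-Y; ATTGG on the opposite strand) or TATAAA (the TATA box).
Aldh1b1, chr5:64858750-64858999, plus strand: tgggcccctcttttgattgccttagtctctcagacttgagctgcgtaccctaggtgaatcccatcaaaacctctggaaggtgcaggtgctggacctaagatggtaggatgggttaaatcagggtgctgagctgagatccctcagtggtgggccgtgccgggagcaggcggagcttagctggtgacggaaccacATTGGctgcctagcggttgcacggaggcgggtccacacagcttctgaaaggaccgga
Akr1c3, chr17:71020634-71020883, plus strand: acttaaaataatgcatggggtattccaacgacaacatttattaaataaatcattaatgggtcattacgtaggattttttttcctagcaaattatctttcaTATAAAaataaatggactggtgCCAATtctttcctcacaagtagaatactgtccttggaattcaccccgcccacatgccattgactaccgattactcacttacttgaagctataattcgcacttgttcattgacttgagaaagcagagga
Aldh1b1 held 1 CCAAT box, on the opposite strand at position -57 from the start, and Akr1c3 held 1 at position -128 and a TATA box at position -150. Both genes lacked TGACNNNGC, the core of the antioxidant response element, and the E-box CACGTG in this window. CCAAT was found in 34.3% of the 27457 promoters of the table, TATAAA in 13.1%, TGACNNNGC in 10.2% and CACGTG in 5.79%, and 18, 4, 3 and 1 of the 31 members with a promoter in the table held them. A match is a stretch of letters and no measured binding site.

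Other aldehyde dehydrogenases of amino acid breakdown were lower too. Aldh4a1, the mitochondrial enzyme that finishes proline breakdown, read 12.61, 12.41, 12.37, 12.32 and 12.28 with vehicle at 9 h and 11.29, 11.22, 11.16, 11.14 and 11.12 with APAP. The groups were far apart, with little spread within either. It was 1.99-fold lower at 6 h (log2 difference -0.99, SE 0.09, adjusted p = 2.76e-06) and 2.32-fold at 9 h (-1.21, SE 0.07, adjusted p = 5.31e-08). At 3 h (-0.50, adjusted p = 0.000444) and 24 h (-0.26, adjusted p = 0.0128) the difference was under 1.5-fold. Aldh5a1, succinic semialdehyde dehydrogenase of GABA breakdown, read 8.48, 8.23, 8.29, 8.39 and 8.47 with vehicle and 7.51, 7.78, 7.77, 7.83 and 7.53 with APAP at 6 h. Its groups did not overlap at 6 or 9 h, where it was 1.61-fold (adjusted p = 2.1e-05) and 1.74-fold lower (adjusted p = 1.54e-05). Aldh6a1 of valine breakdown and Aldh7a1 of lysine breakdown passed at no time, with differences of -0.29 to 0.01 and -0.34 to -0.17.

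Of the folate enzymes, Aldh1l2 passed at 24 h and Aldh1l1 at no time. Aldh1l2, the mitochondrial 10-formyltetrahydrofolate dehydrogenase, read 11.23, 11.38, 11.22, 11.06 and 11.22 with vehicle at 24 h and 10.61, 10.42, 9.49, 10.83 and 10.51 with APAP. All 5 APAP animals were below all 5 vehicle animals, with replicate 3 lowest, and the gene was 1.80-fold lower (log2 difference -0.85, SE 0.20, adjusted p = 0.0173). At 3 and 6 h it differed by 0.21 and -0.07, and at 9 h by -0.45 (SE 0.12, adjusted p = 0.00653), short of 1.5-fold and with overlap. Its cytosolic counterpart Aldh1l1 differed from vehicle by -0.41 to 0.20, lowest at 9 h (SE 0.10, adjusted p = 0.00361), and rose over baseline at 24 h in vehicle (0.98, adjusted p = 8.28e-06) and APAP animals (1.18, adjusted p = 1.62e-05) alike. Aldh3a2, the fatty aldehyde dehydrogenase, was 1.57-fold lower at 9 h (log2 difference -0.65, SE 0.14, adjusted p = 0.00262), a call lost without APAP replicate 3 (-0.53) and after cyclic loess (-0.47). At 3 h it was higher with APAP, at a mean of 12.64 against 12.35, short of 1.5-fold and with overlap. With each animal left out in turn, that difference was 0.26 to 0.35 (limma adjusted p at most 0.0324).

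Several aldehyde dehydrogenases known for work on retinal, ethanol and lipid aldehydes hardly moved with APAP. Aldh2 differed from vehicle by -0.10 to 0.06 over the 4 times, Aldh3a1, which protects the cornea from aldehydes, by 0.01 to 0.14 at a low level (mean 5.19), and Aldh1a2, a retinal dehydrogenase, by -0.14 to 0.02. Aldh1a1, the main retinal dehydrogenase of liver, moved more: it was 0.56 log2 units higher at 24 h (limma adjusted p = 0.0036), just under 1.5-fold. It passed without APAP replicate 1 or 2 or vehicle replicate 4, at up to 0.62. In vehicle animals Aldh1a1 had fallen below baseline at 9 h (log2 difference -0.68) and 24 h (-0.64). Within 0.15 log2 units of vehicle at all 4 times were 7 members: Adh5, Adh6a, Aldh1a2, Aldh2, Aldh3a1, Aldh3b2 and Aox4. The share of all genes within this bound was not counted. Aldh3a1, Aldh3b2 (mean 5.14) and Aox4 (mean 4.90) were dim, below the 25th percentile of gene means (5.98). Aldh16a1 (-0.31 to 0.26) and Aldh3b1 (-0.16 to 0.39) passed at no time either. A missed threshold does not show that these levels were equal.

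Akr1a1 turned from lower to higher with time. It encodes aldehyde reductase, which in rodents also makes a precursor of vitamin C. At 6 h vehicle animals read 12.75, 12.79, 12.69, 12.89 and 12.85 and APAP animals 11.99, 12.16, 12.04, 12.16 and 11.99. At 24 h they read 12.49, 12.34, 12.37, 12.41 and 12.25 against 13.18, 13.35, 13.55, 13.45 and 13.36. The groups did not overlap at either time, and the APAP animals at 24 h exceeded all other arrays. Akr1a1 was 1.65-fold lower at 6 h (log2 difference -0.72, SE 0.06, adjusted p = 1.3e-06), 1.56-fold lower at 9 h (-0.64, SE 0.08, adjusted p = 2.38e-05) and 2-fold higher at 24 h (1.00, SE 0.08, adjusted p = 1.71e-05). With vehicle it rose over baseline by 0.83 at 6 h and 0.90 at 9 h, while APAP animals at these times were within 0.11 and 0.27 of baseline.

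Adh1, the class I alcohol dehydrogenase that oxidizes ethanol and retinol (Adh1c in the current gene table), also turned from lower to higher against vehicle. Unlike Akr1a1, it fell from a baseline mean of 12.49 in both arms until 9 h. At 6 and 9 h its mean was 12.26 and 11.89 with vehicle and 11.60 and 11.32 with APAP. At 6 h the vehicle animals read 12.44, 12.42, 12.09, 12.28 and 12.05 and the APAP animals 11.91, 11.89, 11.20, 11.53 and 11.47. At 24 h the readings were 12.73, 12.82, 12.46, 12.70 and 12.63 with vehicle and 13.41, 13.67, 13.66, 13.88 and 13.42 with APAP. Neither time showed overlap. Adh1 was 1.58-fold lower at 6 h (log2 difference -0.66, SE 0.14, adjusted p = 0.00163), a call lost without APAP replicate 3 (-0.56), and was 1.92-fold higher at 24 h (0.94, SE 0.10, adjusted p = 0.000136). At 9 h the difference of -0.58 had an adjusted p of 0.00658 and missed 1.5-fold by little. When arrays were instead centred on 6 ribosomal protein genes, of which 2 were themselves higher with APAP at 24 h and whose median difference was 0.57, the increases of Akr1a1 and Adh1 at 24 h shrank to 0.45 and 0.38 and no longer passed. After cyclic loess, the decreases of Akr1a1 at 6 and 9 h (-0.54 and -0.45) and of Adh1 at 6 h (-0.48) fell short of 1.5-fold.

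Among the other alcohol dehydrogenases, Adh4, the class II enzyme, fell in vehicle animals from a baseline mean of 8.78 to 7.79, 7.90 and 7.91 at 3, 6 and 9 h (log2 differences -0.99, -0.88 and -0.87, adjusted p = 7.3e-05, 0.000193 and 0.0103). With APAP it was lower still at 9 h, at 6.49 to 7.25 against 7.22 to 8.72 (log2 difference -1.06, SE 0.25, adjusted p = 0.00373), and at 24 h, at 7.58 to 9.04 against 8.88 to 9.51 (-0.80, SE 0.22, adjusted p = 0.0369). The groups overlapped at both times, and at 24 h the call was lost when any animal other than APAP replicate 1 was left out. Adh7, the class IV enzyme and a neighbour of Adh1, fell with vehicle by 0.97 at 6 h and 1.49 at 9 h and differed between APAP and vehicle by -0.11 to 0.54 without passing. Adh5, which breaks down formaldehyde and nitrosoglutathione, and Adh6a stayed within 0.15 of vehicle.

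Akr1d1, the steroid 5-beta-reductase of bile acid synthesis, read 11.55, 11.73, 11.24, 11.21 and 11.17 with vehicle at 9 h and 10.18, 10.15, 10.35, 8.86 and 10.13 with APAP. The groups were apart, with APAP replicate 4 far below the others. It was 2.72-fold lower at 9 h (log2 difference -1.45, SE 0.25, adjusted p = 0.000412) and kept the call without that animal (-1.18). A call at 3 h (-0.81, SE 0.27, adjusted p = 0.04) was lost without APAP replicate 2, 3 or 4 or vehicle replicate 1, 2, 3 or 4, and at 6 h the difference of -0.76 did not pass. Over baseline it rose by 1.07 at 9 h and 1.01 at 24 h with vehicle, and by 1.30 at 24 h with APAP.

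Akr7a2 and Akr1e2 passed at 9 h. Akr7a2, a reductase of succinic semialdehyde and aflatoxin dialdehyde, read 11.04, 11.05, 11.03, 11.20 and 10.96 with vehicle at 9 h and 10.32, 10.10, 10.01, 10.33 and 10.31 with APAP. Akr1e2, a reductase of 1,5-anhydrofructose, read 11.03, 10.87, 10.93, 10.95 and 11.04 against 10.31, 10.11, 10.07, 10.19 and 10.65. Neither gene showed overlap at 9 h, where Akr7a2 was 1.80-fold lower (log2 difference -0.84, SE 0.08, adjusted p = 2.49e-06) and Akr1e2 1.62-fold lower (-0.70, SE 0.10, adjusted p = 9.82e-05, and -0.54 after cyclic loess, short of 1.5-fold). At 6 h the groups of both genes were already apart, with differences short of 1.5-fold for Akr7a2 (-0.42, SE 0.08, adjusted p = 0.00062) and Akr1e2 (-0.48, SE 0.09, adjusted p = 0.000954). At 24 h the differences were 0.04 (SE 0.12) and -0.01 (SE 0.07). Cbr4, a carbonyl reductase of mitochondrial fatty acid synthesis, behaved alike: it read 8.69, 8.88, 8.70, 8.86 and 8.79 with vehicle and 7.89, 7.94, 7.71, 7.68 and 7.85 with APAP at 9 h. This was a 1.96-fold difference without overlap (log2 difference -0.97, SE 0.07, adjusted p = 3.16e-07), beside -0.53 at 6 h and -0.09 at 24 h. The other carbonyl reductase, Cbr3, was dim (mean 5.97) and differed by -0.29 to -0.03.

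Akr1c1 and Akr1c12, steroid and xenobiotic reductases of one gene cluster, had wide spreads. Akr1c1 read 9.83, 8.93, 9.94, 8.99 and 10.68 with vehicle at 3 h and 8.51, 6.24, 5.79, 6.58 and 8.39 with APAP. The groups were apart, although APAP replicates 1 and 5 were close to the lowest vehicle animal. It was 5.95-fold lower at 3 h (log2 difference -2.57, SE 0.54, adjusted p = 0.00335) and 4.20-fold at 6 h (-2.07, SE 0.51, adjusted p = 0.0052), the latter with overlap. At 9 and 24 h the differences of -1.34 (SE 0.86) and -1.27 (SE 0.41) did not pass, and without vehicle replicate 4 the difference at 24 h was -1.65 and passed. Akr1c12 (Akr1c13 in the current gene table) was 3.34-fold lower at 3 h (-1.74, SE 0.30, adjusted p = 0.00108), 2.40-fold at 6 h (-1.26, SE 0.39, adjusted p = 0.0209) and 2.25-fold at 9 h (-1.17, SE 0.43, adjusted p = 0.0434), with overlap at each time. Its call at 6 h was lost without APAP replicate 5 or vehicle replicate 3, 4 or 5, and at 9 h without APAP replicate 2, 3 or 4 or vehicle replicate 1, 4 or 5. After taking away group means, the levels of the pair correlated over the 45 arrays (Pearson r = 0.83, Spearman rho = 0.85, r = 0.82 without the 2 farthest arrays). Whether probes of this pair pick up each other's RNA was not tested.

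Akr1b7, an aldose reductase-like enzyme best known from mouse adrenal and vas deferens, was the least steady member beside Aldh1a7. At 6 h vehicle animals read 7.77, 11.70, 7.68, 7.18 and 8.19 and APAP animals 6.02, 5.43, 5.63, 5.83 and 5.56. The groups did not overlap, and vehicle replicate 2 stood far above the others of its group. The difference was -2.81 (SE 0.67, adjusted p = 0.0043, 7.01-fold lower), and -2.01 without that animal, which still passed. At the other times Akr1b7 did not pass, with differences of -1.21 (SE 0.91), -0.21 (SE 0.37) and 0.96 (SE 1.03). At 24 h vehicle replicate 2, another animal, was high (10.75, the others 5.01 to 5.76), and the difference was 2.01 without it and did not pass. The within-group SD had a median of 1.47 over the 9 groups.

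**Figure D4:**
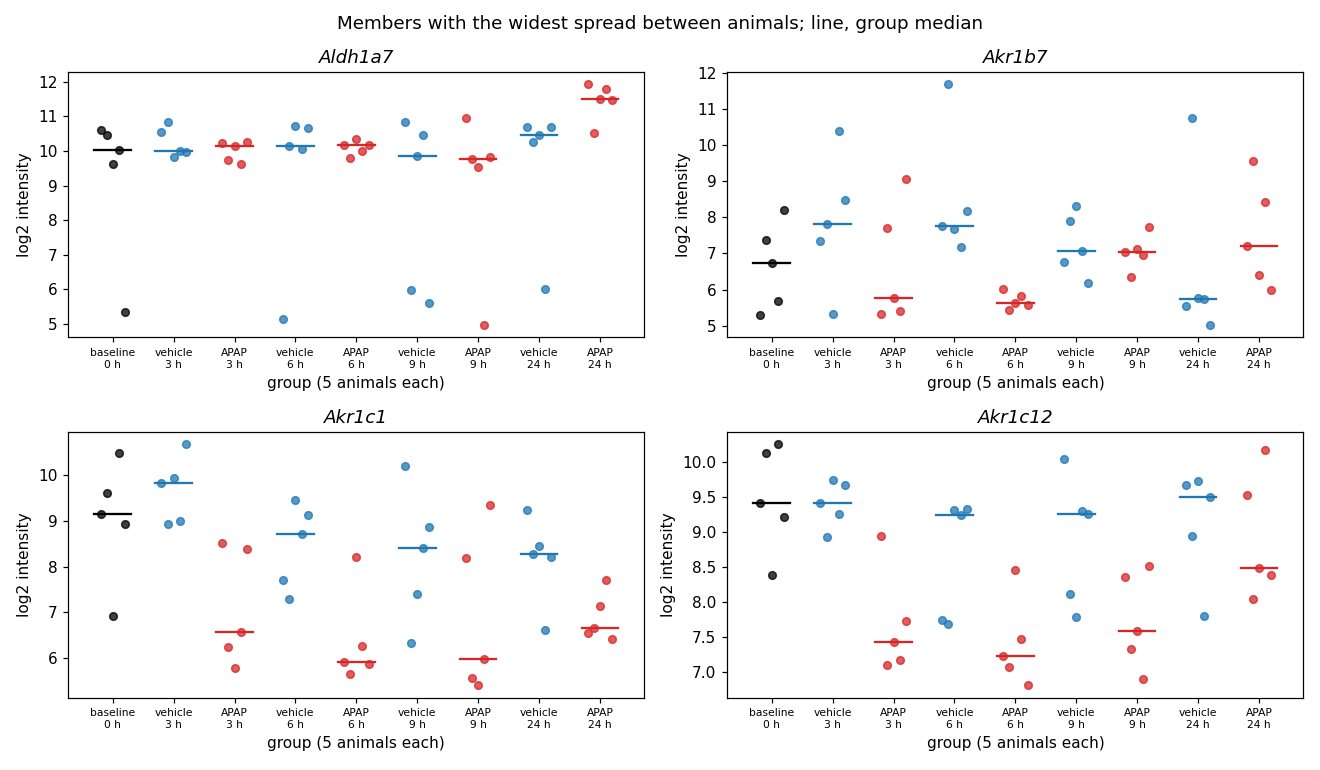
Points are the 5 animals of each group (log2 intensity) and short lines the group medians, for the members with the widest spread within groups. Aldh1a7 lies at 9.53 to 11.94 on 39 arrays and at 4.96 to 6.01 on 6, and one vehicle animal reaches 11.70 in Akr1b7 at 6 h.

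The remaining aldo-keto reductases passed at no time against vehicle. Akr1c19 differed by -0.52 to 0.32, Akr1c15 by -0.15 to 0.27 and Akr1b1, the aldose reductase of the polyol pathway, by -0.36 to 0.17. Akr1c19 fell from baseline in vehicle animals by 0.63, 0.69 and 1.14 at 6, 9 and 24 h, and in APAP animals by 0.71, 1.15, 0.99 and 0.82 at 3, 6, 9 and 24 h.

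The flavin monooxygenases went in opposite directions. Fmo2, the chief form of the lung in many mammals, read 5.71, 5.87, 5.66, 5.75 and 5.56 with vehicle at 6 h and 7.32, 7.05, 7.03, 6.92 and 6.94 with APAP. All APAP animals were above all vehicle animals at 3, 6 and 9 h. It was 1.82-fold higher at 3 h (adjusted p = 5.57e-05), 2.54-fold at 6 h (log2 difference 1.34, SE 0.08, adjusted p = 1.31e-07) and 2.08-fold at 9 h (1.06, SE 0.09, adjusted p = 2.16e-06), and differed by 0.12 (SE 0.10) at 24 h. Against a baseline of 6.36 to 6.71, vehicle animals were lower by 0.76, 0.77 and 0.79 log2 units at 6, 9 and 24 h (log2 differences -0.76, -0.77 and -0.79), and APAP animals were higher by 0.59 at 6 h, a call lost without APAP replicate 1 or baseline replicate 1, 2 or 5.

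Fmo1, the form abundant in rat liver, moved down. At 9 h vehicle animals read 11.40, 11.10, 11.31, 11.02 and 10.98 and APAP animals 10.26, 9.81, 9.64, 10.32 and 10.60. There was no overlap at 6 or 9 h, and some at 24 h through vehicle replicate 2 (10.45). It was 1.61-fold lower at 6 h (log2 difference -0.69, SE 0.11, adjusted p = 0.000313, and -0.52 after cyclic loess, short of 1.5-fold), 2.05-fold at 9 h (-1.04, SE 0.17, adjusted p = 0.000264) and 1.88-fold at 24 h (-0.91, SE 0.21, adjusted p = 0.0156), and was also below baseline at those times (-1.03, -1.45 and -1.27). Fmo4 did not pass against vehicle (-0.36 to -0.09).

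**Figure D5:**
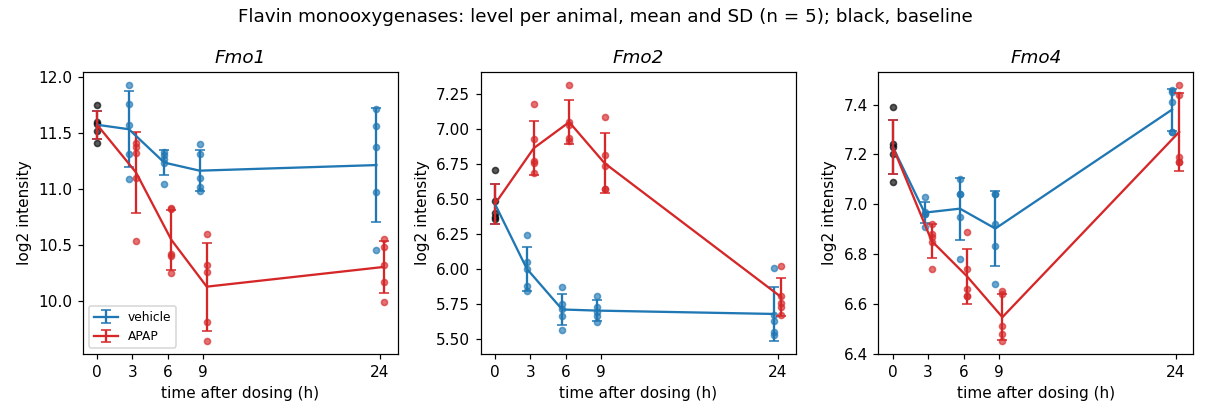
Points are single animals (log2 intensity) at baseline (black), with vehicle (blue) and with APAP (red) against hours after dosing, and lines with bars are group means with SD (n = 5). Fmo2 rises above both baseline and vehicle at 6 h with a mean of 7.05, and Fmo1 falls to 10.12 at 9 h.

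Fmo1 and Fmo2 are neighbours in the GRCr8 gene table, on one chromosome with no protein-coding gene between them, and since they moved apart their upstream 250 bases are given in the same way, with matches in capitals.
Fmo1, chr13:77747667-77747916, minus strand: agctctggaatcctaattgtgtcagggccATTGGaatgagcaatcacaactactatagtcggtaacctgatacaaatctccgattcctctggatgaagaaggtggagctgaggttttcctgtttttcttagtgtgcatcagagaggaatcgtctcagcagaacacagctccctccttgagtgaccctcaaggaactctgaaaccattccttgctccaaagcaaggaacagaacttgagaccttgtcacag
Fmo2, chr13:77777535-77777784, minus strand: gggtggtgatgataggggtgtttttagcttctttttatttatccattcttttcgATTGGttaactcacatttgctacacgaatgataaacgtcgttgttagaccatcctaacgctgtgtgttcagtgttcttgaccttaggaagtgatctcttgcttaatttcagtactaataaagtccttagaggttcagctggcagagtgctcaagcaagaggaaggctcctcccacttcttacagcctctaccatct
Each held 1 CCAAT box on the opposite strand, at position -221 in Fmo1 and -196 in Fmo2, and neither held TATAAA, TGACNNNGC or CACGTG. No match says only that these letters are not in this window.

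The 2 aldehyde oxidases gave no call against vehicle. Aox1 varied widely between animals (median within-group SD 0.551) with differences of -0.61 (SE 0.36) at 9 h and 0.58 (SE 0.25) at 24 h. Over baseline it was 1.00 higher in APAP animals at 24 h (adjusted p = 0.0241), a call lost without APAP replicate 2 or 5 or baseline replicate 2 or 3. Aox4 was near the bottom of the scale and differed by -0.04 to 0.09.

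Aldh1a7, a cytosolic aldehyde dehydrogenase close to Aldh1a1, was singled out after its values were seen. It had no match in the current gene table. On 39 arrays it read 9.53 to 11.94, and on the other 6 it read 4.96 to 6.01, with a gap of 3.52 log2 units between the lots, where the next widest gap of any member was 0.95. The low readings were 5.35 in baseline replicate 5, 5.13 in vehicle replicate 1 at 6 h, 5.97 and 5.60 in vehicle replicates 2 and 5 at 9 h, 6.01 in vehicle replicate 4 at 24 h and 4.96 in APAP replicate 4 at 9 h. They fell in 5 groups of both kinds. At 24 h APAP animals read 11.94, 10.51, 11.51, 11.79 and 11.47 and vehicle animals 10.69, 10.27, 10.46, 6.01 and 10.70. This difference of 1.82 (SE 0.78, adjusted p = 0.178) did not pass, and without the low vehicle animal it was 0.91 and passed.

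The size of the APAP effect differed between times by a test of the difference itself, an interaction in limma. From 3 to 6 h it became more negative in 3 members, against 2.72% of all genes: Aldh1b1 (-1.74, SE 0.28, adjusted p = 0.00018), Akr1c3 (-0.86, SE 0.23, adjusted p = 0.0121) and Adh4 (-0.70, SE 0.20, adjusted p = 0.016). 0 members became more positive, against 4.18% of all genes. At an unadjusted p under 0.05, where the share of all genes was not counted, 13 members changed in either direction. From 6 to 9 h only Akr1c3 became more negative again (-0.82, SE 0.21, adjusted p = 0.0163), with 1.46% of all genes more negative and 1.66% more positive. From 9 to 24 h 13 members became more positive and 2 more negative, against 8.4% and 8.03% of all genes. The largest of these 13 was Akr1c3 (1.94, SE 0.20, adjusted p = 3.74e-07), then Akr1d1 (1.73), Akr1a1 (1.64), Adh1 (1.51) and Aldh1b1 (1.24, adjusted p = 0.0256, lost without vehicle 9 h replicate 1). Aldh4a1 (0.95), Akr7a2 (0.89), Cbr4 (0.88), Akr1e2 (0.68), Aldh1a1 and Aldh5a1 (0.63 each) and Akr1c19 and Aldh1l1 (0.61 each) made up the rest. Fmo2 became more negative (-0.94). The calls of Akr1c19, Aldh1l1, Aldh1a1 and Aldh5a1 were lost with 6, 5, 3 and 2 of the animals left out in turn, at 0.51 to 0.58. Centred on ribosomal protein genes, 4 members became more positive and 6 more negative, with the median change of all genes at -0.4.

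Vehicle animals themselves moved away from baseline. At 3 h 1 member was higher and 3 were lower, against 1.7% and 1.85% of all genes, at 6 h 3 and 5, against 2.7% and 2.33%, at 9 h 4 and 8, against 3.48% and 2.92%, and at 24 h 6 and 3, against 3.62% and 2.93%. Under the ribosomal centring the higher members numbered 3, 4 and 5 at 6, 9 and 24 h and the lower ones 9, 15 and 4. The median of all genes was then -0.23, -0.31 and -0.11. Without that centring, the higher ones at 24 h were Aldh1b1, Akr1c3, Akr1d1, Aldh1l1 (0.98), Aldh4a1 (0.87) and Cbr4 (0.63), and the lower ones Akr1c19, Fmo2 and Aldh1a1. The call of Adh1 at 9 h (-0.60) was lost with 4 of the 10 animals left out in turn, that of Akr1c14 at 9 h (-0.61) with 3, that of Akr1c19 at 6 h without vehicle replicate 2 (-0.58) and that of Akr1c15 at 3 h (-0.65) without baseline replicate 1 (-0.55).

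Set against baseline, which both arms share, APAP animals had 0 members higher and 3 lower at 3 h (2.43% and 1.41% of all genes), 1 and 10 at 6 h (5.93% and 4.72%), and none higher with 17 lower at 9 h (7.89% and 7.15%). By 24 h 8 were higher and 7 lower (4.54% and 3.89%). At an unadjusted p under 0.05 limma gave 18, 25, 28 and 28 members in either direction. The share of all genes at this looser threshold was not counted, so whether these numbers are unusual cannot be told. The 17 lower ones at 9 h included Adh4 (log2 difference -1.93), Akr1c12 (-1.75), Adh7 (-1.60), Fmo1 (-1.45), Aldh3a2 (-1.19) and Adh1 (-1.17). The 8 higher ones at 24 h were Aldh1b1 (2.23), Akr1c3 (1.59), Akr1a1 (1.41), Akr1d1 (1.30), Aldh1l1 (1.18), Adh1 (1.12), Aox1 (1.00) and Aldh4a1 (0.61). The split at 24 h was 4 and 23, and Aldh4a1 was at -0.05, when arrays were centred on the ribosomal protein genes. The median of all genes was then -0.65. The calls of Akr1c14 (-0.60) and Cbr4 (-0.59) at 9 h were each lost with 4 of the 10 animals left out in turn, and at 24 h that of Akr1c15 (-0.61) was lost without baseline replicate 1. For Akr1a1 and Aldh1b1 at 6 and 9 h, the vehicle group thus lay above baseline and the APAP group within 0.30 of it. By contrast, Fmo1, Adh4 and Aldh3a2 at 9 h lay below baseline with APAP. Vehicle animals at 9 h also had lower means than baseline in Fmo1 (11.16 against 11.57), Adh4 (7.91 against 8.78) and Aldh3a2 (12.32 against 12.86).

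Of 39 measured genes of neighbouring pathways (retinol and short-chain dehydrogenases, quinone and enone reductases, epoxide hydrolases, amine oxidases and retinoid handling), 3 were higher and 2 lower with APAP at 3 h (3.34% and 2.98% of all genes), and at 6 h 4 were higher and 11 lower (7.06% and 7.04%). At 9 h the counts were 4 and 14 (8.65% and 8.47%), and at 24 h both were 5 (1.56% and 1.84%). The values of these genes given next are a selection, of lower genes only at 9 h and of higher genes only at 24 h. Among the retinoid genes at 9 h, Lrat, which esterifies retinol, was lower (-2.56, adjusted p = 2.29e-09), as were the retinal reductase Dhrs3 (-2.05, adjusted p = 1.29e-08) and Bco1, which cleaves beta-carotene (-1.57, adjusted p = 0.000208). Maob, a mitochondrial amine oxidase that makes aldehydes, was lower at 3, 6 and 9 h (-0.79, -1.16 and -1.58). Higher at 24 h were Akr1b8 (3.98, SE 0.40, adjusted p = 8.82e-05) and Akr7a3 (3.45, SE 0.25, adjusted p = 1.24e-05), relatives of the members that were left out of them, with the quinone reductase Nqo1 (2.74), the enone reductase Ptgr1 (1.56) and the epoxide hydrolase Ephx1 (1.06). Their near relatives among the members gave other values at 24 h: Akr7a2 differed by 0.04, Akr1b1 by 0.17 and Akr1b7 by 0.96 (SE 1.03), or 2.01 without vehicle replicate 2.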

How the data were processed

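Liver RNA of 45 rats (9 groups of 5, 1 Affymetrix whole-genome rat array per animal) was used as the log2 values that the authors deposited, made with RMA (affy 1.64.0, R 3.6.1, per the labels) on a redefined probe set file giving 1 value per gene. RMA equalizes the distribution of all arrays, so only relative changes are seen. The deposited gene sheet's other 45 value columns and the authors' own comparisons were not used. Each comparison was fitted on its own 10 arrays (20 for differences between times) with limma 3.58.1 in R 4.3.3 (lmFit, eBayes), p-values were adjusted over 13877 genes, and genes passed at 0.05 and 1.5-fold. The scripts were tested on simulated data. Values in every animal were given for members that passed without overlap of the groups, by size of difference, up to 16, and other members by summaries. The counts cover all 41 members, 1 of which is not reported here by itself. Members and lists were chosen with earlier results of these data known. Scan batches are not given in the sources used here. With 5 arrays a group the number of animals limits the precision. Promoters came from RefSeq's GRCr8 table, where 40 of 41 members matched a gene and 31 had an entry. Alternatives included other thresholds, normalizations, a filter on dim genes, array weights, a replicate block and leaving out each animal.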

Additional observations from a re-analysis of the deposited data

Results flagged for a closer look

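In 19 of 369 groups of 5 animals (5.15%), 1 animal stood apart from the rest by Dixon's test, where chance flags about 1 in 20. These animals were not left out. Aldh1a7 gave 4 of them, low at 5.35 in baseline replicate 5 (the others 9.61 to 10.61), 5.13 in vehicle replicate 1 at 6 h, 6.01 in vehicle replicate 4 at 24 h and 4.96 in APAP replicate 4 at 9 h. Vehicle replicate 2 was high for Akr1b7 at 6 h (11.70, the others 7.18 to 8.19) and so was replicate 2 at 24 h (10.75, the others 5.01 to 5.76). APAP animals stood apart for Akr1c1 at 6 h (replicate 3, 8.22), Akr1d1 at 9 h (replicate 4, 8.86), Aldh1b1 at 24 h (replicate 5, 8.35), Aldh4a1 at 6 h (replicate 4, 11.56) and 24 h (replicate 5, 12.30), Aldh6a1 at 24 h (replicate 3, 10.44), Aldh3b2 at 9 h (replicate 5, 4.87) and Adh6a at 6 h (replicate 1, 6.34) and 24 h (replicate 3, 6.63). Vehicle animals stood apart for Adh4 at 24 h (replicate 5, 9.51), Aox1 at 9 h (replicate 1, 10.32), Cbr3 at 24 h (replicate 2, 6.16) and Aldh3a1 at 24 h (replicate 1, 4.89). In 8 of the 19 the animal was at least 1 log2 unit from its nearest neighbour.

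The APAP effect differed between adjacent times, by a limma interaction, in 19 cases, 18 of which are given here. From 3 to 6 h the change of the effect was -1.74 for Aldh1b1, -0.86 for Akr1c3 and -0.70 for Adh4, and from 6 to 9 h it was -0.82 for Akr1c3. From 9 to 24 h it was 1.94 for Akr1c3, 1.73 for Akr1d1, 1.64 for Akr1a1, 1.51 for Adh1, 1.24 for Aldh1b1, 0.95 for Aldh4a1, 0.89 for Akr7a2, 0.88 for Cbr4, 0.68 for Akr1e2, 0.63 for Aldh1a1, 0.63 for Aldh5a1, 0.61 for Akr1c19 and 0.61 for Aldh1l1, and -0.94 for Fmo2. Centred on ribosomal protein genes, 4 members became more positive and 6 more negative from 9 to 24 h, with the median change of all genes at -0.4.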

How the results depend on the processing

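Under alternatives that kept all animals, only the calls of the main fits were scored, so gained calls do not enter. Changed thresholds, other variance settings of limma, fitting all arrays, the filter on dim genes and the replicate block left all log2 differences unchanged. None of these settings could turn a result, which only array weights, cyclic loess and the ribosomal centring could. Dropping the fold minimum could also lose none, which fixed 138 of the kept results in advance. In this tally 1365 single-gene results kept their direction and their side of the threshold, 148 lost the call and 1 turned: Aldh4a1 in APAP animals against baseline at 24 h, at -0.05 with arrays centred on 6 ribosomal protein genes. That centring, chosen after seeing the data because the planned 6 ribosomal genes were not measured, moved the median of all genes by up to -0.65. Under it 20 members (0 higher) passed against vehicle at 24 h, beside 5150 of all genes. It also gave 19 (4 higher) in vehicle against baseline at 9 h, 5, 27 and 27 (4 higher) in APAP against baseline at 3, 9 and 24 h, and 3 (1 higher) in the change from 6 to 9 h. Without a fold minimum, 14, 22 and 12 members passed against vehicle at 3, 6 and 24 h, beside 3829, 5939 and 1533 of the 13877 genes. Members numbered 12, 20, 24 and 17 in vehicle against baseline at the 4 times, with 3090 and 3629 of all genes at 3 and 6 h. They numbered 12, 25 and 26 in APAP against baseline at 3, 6 and 9 h, and 8 and 3 in the changes to 6 and 9 h. At 2-fold the counts were 2, 6, 8 and 2, then 0, 2, 5 and 4, then 1, 6 and 6, and 1, 0 and 6 for the changes. Over all genes 326, 693, 889 and 143 passed at 2-fold against vehicle, and 145 in vehicle against baseline at 3 h. Where no number of all genes stands beside a member count in this section, whether that count is unusual cannot be told. At an adjusted p of 0.01 the members numbered 2 against vehicle at 24 h (388 of all genes), 2 in vehicle at 3 h (460 of all genes), and 1 and 0 in the changes to 6 and 9 h. Without the 25% dimmest genes 2 members changed from 6 to 9 h. For the centring, the thresholds and the filter on dim genes, only counts more than 1.5-fold from the main ones are given. Leaving out each animal gave 4 to 6, 11 to 13, 13 to 16 and 5 to 9 members against vehicle, 3 to 5, 8 to 10, 10 to 13 and 9 in vehicle against baseline, 3 to 5, 10 to 11, 15 to 18 and 14 to 16 in APAP against baseline, and 3 to 4, 1 to 2 and 13 to 18 for the changes. Animals with the same replicate number deviated from their group means with correlations of -0.23 to 0.31 over 60 pairs, 12 of them over 0.1. Animals with different numbers were not compared, so whether the numbers pair animals cannot be told from this. With a replicate block 5, 12, 16 and 7 members passed against vehicle. Cyclic loess lost Adh1, Akr1a1 and Fmo1 at 6 h and Akr1a1, Akr1c12, Akr1e2 and Aldh3a2 at 9 h. The cause was not tested. With 5 animals a group, the group differences of dim or widely spread members such as Aldh1a7 were estimated with little precision.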
